A study of Homo sapiens with 5 samples.

Results

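Of the 10671 genes that had at least 1 poly(A) site annotated as 3' UTR on a nuclear chromosome or scaffold, 6330 (59.3%) had exactly 1 such site. These 6330 sites, called single-site genes or members here, were chosen by their annotation and by the number of 3' UTR sites listed for their gene. The difference between the groups played no part in that rule, but a site is listed only if its RPM summed over the 5 libraries reached the minimum level of the table, so the reads of both groups bear on membership. They were compared with the 2472 genes that had 2 such sites, the 1015 that had 3 and the 854 that had 4 or more. The whole table held 29996 sites, of which 18491 were nuclear 3' UTR sites. A second 3' UTR site may exist in a member and still lie under the minimum level of the table, or be listed without an assigned gene. The members are therefore genes with no tandem choice listed under their identifier, not genes shown to lack one.

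The reads came from H9, an established human embryonic stem cell line grown in mTeSR medium, with no treatment named beyond the making of the clones. There were 3 libraries labelled CFIm25 KO and 2 labelled control, whose genotype entry reads control KO. According to the study's methods, cultures were selected on puromycin and every line was a single clone. The control lines were clones that received an empty CRISPR vector, and the edited lines carried short deletions near the N-terminus of CFIm25 with strongly reduced protein, so KO is used as a label and not as a statement that the protein was absent. RNA was read from its poly(A) end with the QuantSeq Rev kit on a NovaSeq instrument, so that each read marks the 3' end of 1 transcript. Differences between clones that editing did not make cannot be told apart from the effect of CFIm25, and each p-value below measures the spread between these 5 clones. CFIm25 KO 3 stood apart from the other edited clones at many members, so results that rest on it are also given without it. By the count of members given further on, CFIm25 KO 2 lay furthest from the controls.

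A transcript ends where its precursor is cleaved and a poly(A) tail is added. The cleavage machinery reads a hexamer, usually AAUAAA or AUUAAA, shortly upstream of the cut. Cleavage factor I, whose subunit CFIm25 is encoded by NUDT21, binds UGUA motifs upstream of the cut and is known for favouring distal sites in genes with several 3' UTR sites. A gene with 1 listed 3' UTR site offers no such tandem choice among the sites assigned to it, and its remaining choice there is an end inside an intron or another exon.

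The ends of 8 members are printed to show the signals that surround a single site: the 4 members that passed the site test, CSNK1E, which passed the intronic test, CCDC152, a transcript that the study named, and a pair of the most abundant members, TMSB4X and RPL7A. Each sequence is the last 30 bases of the transcript that the table assigns to the site, taken by its identifier from GENCODE v44 (lifted to GRCh37) and written 5' to 3' as DNA on the strand of the transcript, with the hexamer AATAAA or ATTAAA in capitals. It is the annotated end, not the measured cut.
CHCHD2: gttaattagAATAAAgtcattttcttccaa
ZFP42: tatttcacaATTAAAgaatatgaaacttca
TCL1B: ctggttaATTAAActttattgctcactgtc
C9orf135: tctatcttAATAAAtgcaatggaagtgtta
CSNK1E: tgaagtAATAAAgtagaaaagataaagtga
CCDC152: taaattccATTAAAttttagcatacaacta
TMSB4X: taatatgcaAATAAAaagtttaaaaactta
RPL7A: aataattgaaataatacaaattttccttca

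The hexamer stood between 15 and 18 bases from the annotated end in 7 of the 8, and neither form occurred in the last 30 bases of RPL7A. The measured sites of CHCHD2, TCL1B, C9orf135, CSNK1E, TMSB4X and RPL7A lay within 3 bases of the end of the gene in RefSeq (GRCh38.p14). Those of ZFP42 and CCDC152 lay 201 and 374 bases upstream of it, so their printed ends need not be the sequence at the measured cut. All positions are given as GRCh38, and the ZFP42 site is on chromosome 4 at position 188005045, that of CHCHD2 on chromosome 7 at 56101571, that of TCL1B on chromosome 14 at 95692629, that of C9orf135 on chromosome 9 at 69906228 and that of CSNK1E on chromosome 22 at 38290693.

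Single-site genes were expressed at lower levels and had shorter 3' UTRs than genes with more sites. The median of the reads summed over the 5 libraries was 275 for members, 591 for genes with 2 sites, 865 for genes with 3 and 1650 for genes with 4 or more. The annotated 3' UTR had a median length of 902 bases in the 6120 members with a value, against 1724, 2363 and 3047 bases in the other classes. The share of single-site genes fell with level from 92.7% of 2107 genes under a mean log2 CPM of 2 to 39.6% of 462 genes at 8 or more, where CPM is the count scaled to a library of 1000000 tested reads after TMM scaling. The difference in length remained within each level: from 2 to 4 the medians were 1006 bases in members and 2404 in the others, and at 8 or more they were 255 and 1268 bases. At high level the members therefore were 183 genes with mostly very short 3' UTRs. These are descriptions of the annotation and the table, and the number of listed sites depends on depth, since each site had to pass the minimum level of the table on its own.

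**Figure D1:**
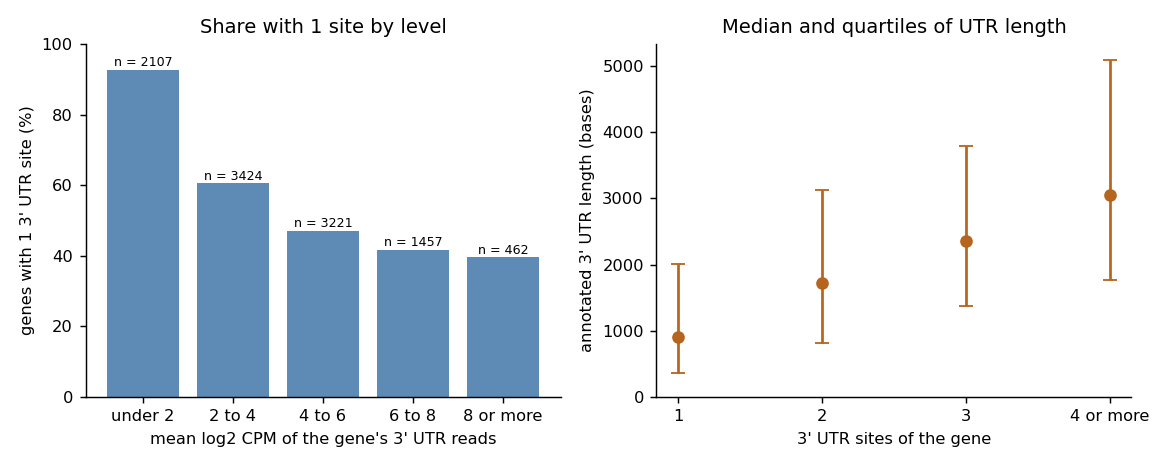
Left, the share of genes with exactly 1 listed 3' UTR site (vertical axis, percent) by the mean log2 CPM of the gene's 3' UTR reads, with the number of genes above each bar. Right, the median annotated 3' UTR length in bases (points) with its quartiles (bars) by number of 3' UTR sites; the share fell from 92.7% to 39.6% and the median length rose from 902 to 3047 bases.

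The signals at the annotated ends differed little between the classes. The last 40 bases held AATAAA in 65.2% of the members with a sequence, ATTAAA alone in 14% and neither in 20.9%. Among genes with 2, 3 and 4 or more sites, taking the most downstream site, AATAAA stood in 64.1%, 60.4% and 61.7%. The motif TGTA, the DNA form of the motif bound by CFIm25, occurred at least once in the last 100 bases of 53.6% of members, against 58.5%, 60.5% and 61.6% of the other classes. Only the transcript strand was searched. The site lay within 25 bases of the RefSeq gene end in 62.9% of 6298 matched members and in 59.6%, 60.4% and 57.7% of the other classes.

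The most abundant members were genes of translation and the cytoskeleton, and none of them passed the test. TMSB4X, which encodes the actin-binding peptide thymosin beta 4, had 5394 and 5435 CPM in the controls, compared with 5119, 5863 and 6042 CPM in the edited clones. RPL7A, a protein of the large ribosomal subunit, had 4792 and 4921 CPM against 5463, 5709 and 4779 CPM. EEF1G, a subunit of the elongation factor complex that delivers tRNA to the ribosome, had 4083 and 4675 CPM against 4101, 6348 and 4584 CPM. In all of these genes the groups overlapped. The ribosomal protein genes RPS12, RPL8, RPS18 and RPS24 were also among the most abundant. RPL8 and RPS24 did not overlap between the groups, in opposite directions. RPL8 had 3307 and 3321 CPM in the controls and 3841, 4059 and 3464 CPM in CFIm25 KO (edgeR log2 fold change 0.19 with SE 0.11, adjusted p = 0.694). RPS24 had 2900 and 3132 CPM against 2436, 2780 and 2580 CPM (edgeR log2 fold change -0.22 with SE 0.11, adjusted p = 0.654). Ribosomal protein genes have near-identical processed copies, and 1 alignment was kept for each read, so their levels are uncertain to that extent. At the other end, the members just inside the minimum level of the table were TTC39B, CATSPER2 and GOLGA6L10, none of which had enough reads to be tested.

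The members' share of the reads was close to 40% in every library. Their part of all nuclear 3' UTR reads was 39.7% and 39.6% in the controls, compared with 39.5%, 39.6% and 40.2% in the edited clones. The mean difference of 0.11 percentage points was not distinguishable from the spread between clones (exact two-sided permutation test, p = 1, smallest possible p 0.1), and it was -0.11 percentage points without CFIm25 KO 3. The table held between 5203908 and 7783102 reads per library, of which members took 1624131 to 2432501. NUDT21, which is no member, stood at 201 CPM in each control and at 118, 117 and 119.5 CPM in the edited clones, but its 3' reads lie outside the edited part and do not check the edit. The pluripotency genes POU5F1 and SOX2 are both single-site genes. POU5F1 had 157 and 183 CPM in the controls and 194, 189 and 179 CPM in CFIm25 KO, and SOX2 had 78.2 and 62.6 CPM against 68.3, 74.2 and 59.8 CPM. Over all sites, the 7 markers of H9 summed to 3533 and 1943 CPM in the controls and 3117 to 3591 CPM in CFIm25 KO, with control 2 below every other library. Of markers of other cell types, 6 of 17 neural ectoderm, 2 of 10 mesoderm, 1 of 10 endoderm, 3 of 10 trophoblast and 4 of 9 fibroblast genes were in the table. The neural ectoderm genes summed to 172 to 198 CPM in the controls and 215 to 554 CPM in CFIm25 KO, with the highest value in CFIm25 KO 2. The trophoblast genes summed to 547 and 507 CPM in the controls and 471, 301 and 596 CPM in CFIm25 KO, the fibroblast genes to 225 and 236 CPM against 198, 161 and 330 CPM, and the mesoderm genes to 31.7 and 32.1 CPM against 18.4, 13.4 and 37.4 CPM. These 3 sums were lowest in CFIm25 KO 2 and highest in CFIm25 KO 3, and their part in the differences between clones given further on was not tested. Of the single-site markers, NES, which encodes the intermediate filament nestin, had 57.0 and 52.6 CPM against 74.2, 74.6 and 71.7 CPM. The keratin gene KRT18 had 512 and 472 CPM against 438, 279.7 and 542 CPM, and the collagen gene COL1A1 had 9.94 and 10.2 CPM against 11.1, 14.4 and 15.3 CPM. KRT18 made up most of the trophoblast sum in every library. Of the 3 trophoblast markers in the table, all single-site genes, KRT18 had a log2 fold change below 0 and 2 stood above. Their median was 0.03, and with library totals 1 stood above 0. Such bulk libraries do not show whether the RNA of these marker genes came from the H9 cells themselves or from other cells. Nor can fewer cells of a type and less RNA per cell be told apart in them.

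Of the 6330 members, 5793 passed the low-count filter and 537 did not. A single-site gene was called when the edgeR quasi-likelihood test gave an adjusted p under 0.05 over all 24722 sites tested. Called members numbered 4, of which 3 were lower and 1 was higher in CFIm25 KO, or 0.069% of those tested. Over all sites the share called was 0.101%, so members were called about as rarely as sites in general. At an unadjusted p under 0.05 there were 341 members (5.89%), against 8.11% of all sites. The groups did not overlap in 22.9% of the tested members, against 25.9% of all sites. The median log2 fold change was 0.029 over members and 0.0056 over all sites, and both medians turned negative when library totals replaced TMM scaling (-0.0046 and -0.028). Within 2-fold of control stood 97.4% of the tested members and 94.8% of all sites.

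**Figure D2:**
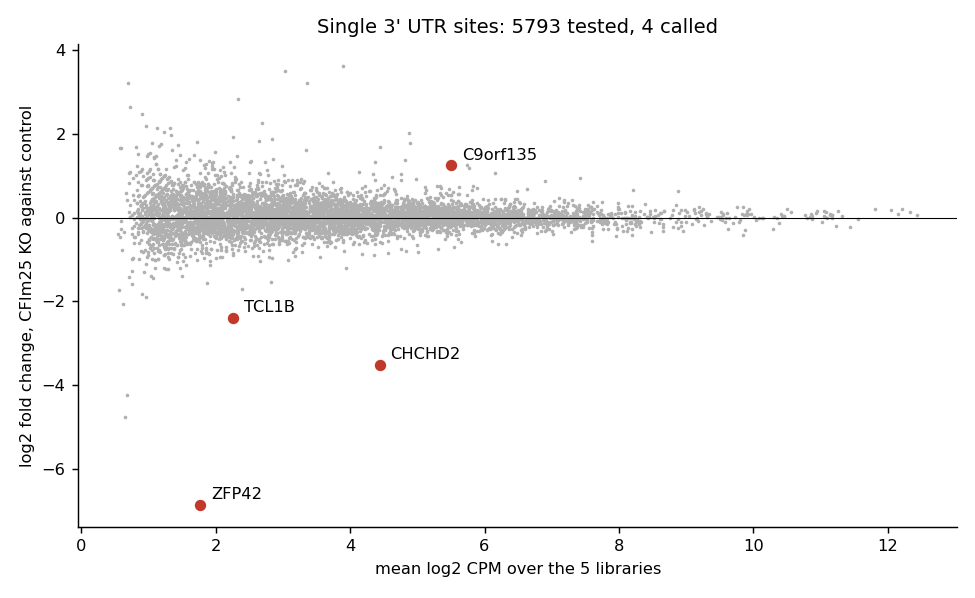
Log2 fold change of CFIm25 KO against control (vertical axis) by mean log2 CPM over the 5 libraries (horizontal axis) for the 5793 single 3' UTR sites tested, one point per site. The 4 members with an edgeR adjusted p under 0.05 are red and named, 3 of them below 0 and 1 above.

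ZFP42, also known as REX1, encodes a zinc finger protein that marks undifferentiated embryonic stem cells. It had 42 and 44 reads in the controls, compared with 0, 0 and 1 read in the edited clones, which do not overlap. Control exceeded CFIm25 KO by a ratio of 165, with a 95% counting interval from 28.8 to 6582, and the site was called lower (edgeR adjusted p = 0.000296). CHCHD2, which encodes a protein of mitochondria and nucleus that acts in respiration, had 249 and 254 reads in the controls and 21, 30 and 31 reads in CFIm25 KO. Its level fell from 47.9 ± 1.68 CPM (SD, n = 2) to 4.24 ± 1.48 CPM (SD, n = 3), a log2 fold change of -3.52 (SE 0.25, edgeR adjusted p = 1.25e-05). ZFP42 and CHCHD2 kept their call when any 1 library was left out. The study named both as changed on samples that include these, so their direction is no independent evidence.

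TCL1B, a relative of the AKT coactivator TCL1A, had 54 and 41 reads in the controls and 9, 17 and 8 reads in CFIm25 KO. It fell from 9.03 ± 1.56 CPM (SD, n = 2) to 1.71 ± 0.73 CPM (SD, n = 3), with a log2 fold change of -2.40 (SE 0.38, edgeR adjusted p = 0.0257). C9orf135, whose product is a membrane protein found on human pluripotent cells, was the called member that rose. Its counts were 142 and 116 in the controls and 448, 444 and 292 in CFIm25 KO, and its level rose from 24.5 ± 2.98 CPM (SD, n = 2) to 58.6 ± 6.86 CPM (SD, n = 3), a log2 fold change of 1.26 (SE 0.17, edgeR adjusted p = 0.00883). Both calls were lost without control 1 (adjusted p = 0.359 for TCL1B and 0.0896 for C9orf135), without control 2 (0.151 and 0.4) and without CFIm25 KO 1 (0.148 and 0.0539), with the direction kept each time. ZFP42, TCL1B and C9orf135 belong to the list here called core pluripotency, of which 20 of 32 genes with a 3' UTR site were single-site genes. That list was chosen with earlier results of these data known, so their place in it is no result about pluripotency. Of its 19 tested members, 12 stood above 0 and 7 below. Their median of 0.05 ran from -0.14 (without CFIm25 KO 3) to 0.17 (without control 2) when 1 library was left out.

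Another pair of transcripts that the study named were members and did not pass. CCDC152, which encodes a coiled-coil protein, had 15 and 19 reads in the controls, against 1, 0 and 1, a ratio of 32.6 with a counting interval from 8.35 to 279.8 (edgeR adjusted p = 0.0753). DCTN5, a subunit of the dynactin complex that links dynein to its cargo, had 24.2 and 21.3 CPM against 16.5, 12.2 and 16.4 CPM (edgeR log2 fold change -0.59 with SE 0.21, adjusted p = 0.468). In both genes every CFIm25 KO clone lay below both controls. The CCDC152 site lies 2181 bases from the single site of SELENOP, which encodes the selenium carrier selenoprotein P and lies on the opposite strand. SELENOP had 11 and 6 reads in the controls and 131, 181 and 6 reads in CFIm25 KO.

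**Figure D3:**
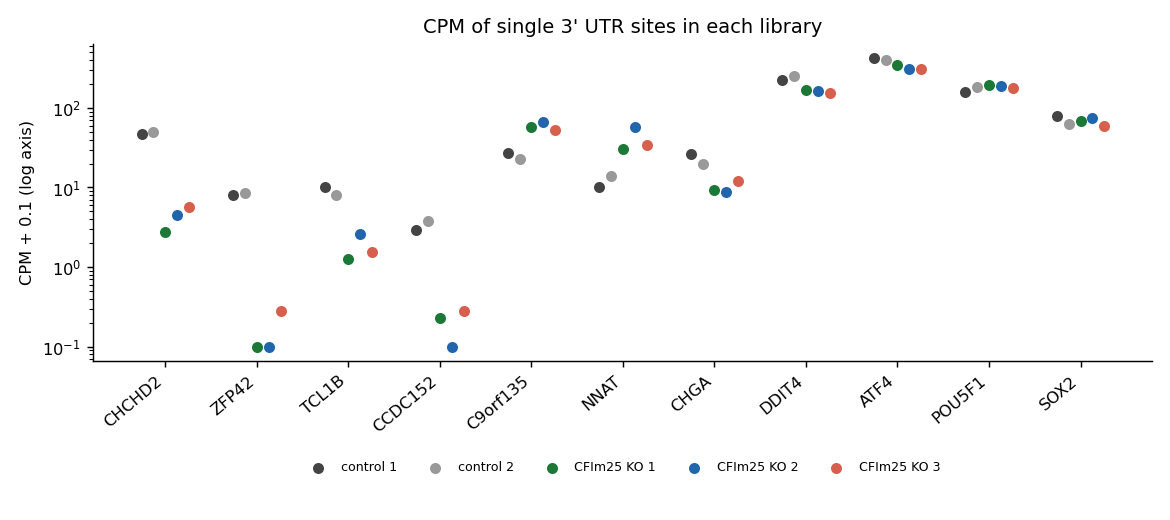
CPM plus 0.1 on a log axis in each of the 5 libraries for 11 single-site genes, one point per library. CHCHD2, ZFP42, TCL1B and CCDC152 lie lower in all 3 CFIm25 KO clones than in both controls, C9orf135 and NNAT lie higher, and POU5F1 and SOX2 overlap.

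Among members whose groups did not overlap and whose mean log2 CPM reached 3, CHCHD2 had the largest negative fold change, followed by CHGA, NANP, SLIT2 and KLHDC7A, and none of the latter 4 passed. CHGA, which encodes the secretory granule protein chromogranin A, had 26.1 and 19.5 CPM in the controls and 9.28, 8.64 and 12.1 CPM in CFIm25 KO (edgeR log2 fold change -1.19 with SE 0.23, adjusted p = 0.0902). SLIT2, a secreted ligand of ROBO receptors in axon guidance, had 15.6 and 16.6 CPM against 9.41, 7.0 and 8.85 CPM (adjusted p = 0.226). NANP, a phosphatase of sialic acid synthesis, had 12.2 and 11.4 CPM against 7.5, 5.36 and 4.51 CPM, and KLHDC7A had 10.5 and 14.1 CPM against 4.45, 6.70 and 8.67 CPM. The largest positive values, beside C9orf135, were those of NNAT, NCAN, DPP10 and TSPOAP1, none of which passed. NNAT, an imprinted gene encoding the membrane protein neuronatin, had 9.94 and 13.9 CPM in the controls and 30.5, 57.6 and 34.1 CPM in CFIm25 KO (edgeR log2 fold change 1.77 with SE 0.32, adjusted p = 0.15). NCAN, which encodes the brain proteoglycan neurocan, had 4.5 and 4.06 CPM against 10.6, 22.2 and 6.86 CPM. DPP10, which encodes a potassium channel partner, had 9.19 and 12.2 CPM against 23.8, 39.5 and 16.4 CPM, and TSPOAP1 had 9.38 and 11.0 CPM against 24.8, 27.9 and 11.9 CPM. In NNAT, NCAN, DPP10 and TSPOAP1 alike CFIm25 KO 2 was the highest library.

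Housekeeping families had shares of single-site genes near or below the 59.3% of all genes, and no member of the families described here passed the test. The shares were 53.1% for cytosolic ribosomal proteins, 56.9% for mitochondrial ribosomal proteins, 56.8% for the proteasome, 50% for mitochondrial import, 61.1% for nuclear oxidative phosphorylation and 49.2% for heat shock and chaperone genes. Of 81 cytosolic ribosomal protein genes with a 3' UTR site, 43 were members, with a median 3' UTR of 61 bases. Of these, 29 stood above 0 and 14 below, with a median log2 fold change of 0.06 and a range from -0.28 to 0.21. Of 41 tested members of the mitochondrial ribosomal proteins, which translate the mitochondrial genome, 33 stood below 0 and 8 above, with a median of -0.12. For the 25 proteasome members, 20 stood below 0 with a median of -0.10, and for the 12 members of mitochondrial import, 9 stood below 0 with a median of -0.13. Of the 44 members of nuclear oxidative phosphorylation 29 stood below 0, with a median of -0.03. Over all tested members 54.5% stood above 0, and over all sites 50.6% (49.3% and 46.6% with library totals). The list medians printed above kept their sign with DESeq2 size factors, with library totals and with any 1 library left out, but their size moved. That of heat shock and chaperone genes was 0.03 and turned to -0.0078 with library totals. Over the libraries left out the cytosolic ribosomal median ran from 0.02 (without CFIm25 KO 2) to 0.09 (without CFIm25 KO 3), and the mitochondrial ribosomal median from -0.18 to -0.09 (without CFIm25 KO 3 and 2). The proteasome median ran from -0.17 to -0.06 and that of oxidative phosphorylation from -0.06 to -0.01, again without CFIm25 KO 3 and 2. The median of mitochondrial import ran from -0.22 (without CFIm25 KO 3) to -0.07 (without CFIm25 KO 1).

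Single members of these families lay on either side of control. MRPL23, with the lowest value among the mitochondrial ribosomal members, had 12.01 and 6.57 CPM in the controls and 3.05, 4.92 and 6.86 CPM in CFIm25 KO, so the groups overlapped (edgeR log2 fold change -0.93 with SE 0.37, adjusted p = 0.545). MRPS33, of the small mitochondrial subunit, had 36.6 and 31.1 CPM in the controls and 24.0, 26.1 and 27.6 CPM in CFIm25 KO. NDUFS4, a subunit of complex I, had 56.9 and 54.5 CPM against 45.1, 37.7 and 41.9 CPM. PSMA3, a core subunit of the proteasome, had 322 and 299.6 CPM against 276, 234 and 269 CPM. In MRPS33, NDUFS4 and PSMA3 the groups did not overlap, the log2 fold change was -0.39, -0.42 and -0.26, and the edgeR adjusted p was 0.582, 0.499 and 0.63. PSMB3, another core subunit, pointed the other way with 23.5 and 19.5 CPM against 27.6, 29.9 and 24.9 CPM. SNRPE, a core protein of spliceosomal snRNPs, had 157 and 134 CPM against 122.6, 109 and 118 CPM. Among heat shock and chaperone genes, 17 of 30 tested members stood above 0. The mitochondrial co-chaperonin HSPE1 had 1157 and 1000.2 CPM against 891.5, 701 and 833 CPM, while the inducible chaperone HSPA1A, which has a near-identical neighbour, had 61.7 and 55.9 CPM against 85.7, 82.8 and 69.7 CPM.

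Among the longer lists the integrated stress response leaned to lower values. It is the programme by which the transcription factor ATF4 induces amino acid supply and stress genes. Of its 14 members, 12 stood below 0 and 2 above, with a median log2 fold change of -0.27, and the groups did not overlap in 6, all lower. Groups that did not overlap made up 25.9% of all sites and 22.9% of members in either direction. No member of the list passed the test. ATF4 itself had 419.7 and 403 CPM in the controls and 347, 312 and 306 CPM in CFIm25 KO (edgeR log2 fold change -0.36 with SE 0.12, adjusted p = 0.457). DDIT4, an inhibitor of mTORC1 that stress induces, had 227 and 249.8 CPM against 168, 164 and 156 CPM (edgeR log2 fold change -0.55 with SE 0.12, adjusted p = 0.156). CHAC1, which degrades glutathione, had 94.9 and 123.1 CPM against 77.6, 83.1 and 85.4 CPM, and SLC3A2, the heavy chain of amino acid transporters, had 132 and 169.7 CPM against 110.2, 116 and 121 CPM. Every CFIm25 KO clone lay below both controls in these 4 genes. The median was -0.26 with DESeq2 size factors and -0.30 with library totals. Over the libraries left out it ran from -0.33 (without CFIm25 KO 3) to -0.20 (without control 2).

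Zinc finger genes named ZNF, most of which encode transcriptional repressors, formed the largest list. Of 313 with a 3' UTR site 189 were members, and of the 177 tested 116 stood above 0 and 61 below, with a median of 0.10 that was 0.06 with library totals and 0.18 without control 2. ZNF432 had 4.5 and 4.45 CPM in the controls and 8.14, 7.75 and 8.12 CPM in CFIm25 KO, and ZNF667 had 4.69 and 6.96 CPM against 12, 12.2 and 8.30 CPM (edgeR adjusted p = 0.443 and 0.419). Neither passed, and no other member of the list did. Of 22 cleavage and polyadenylation factors with a 3' UTR site 7 were members. CPSF1, the largest subunit of the complex that reads the hexamer, had 21.2 and 22.8 CPM against 28.2, 31.1 and 24.7 CPM, and CLP1, a kinase of cleavage factor II, had 7.13 and 5.80 CPM against 3.43, 4.32 and 5.05 CPM. The median of the 6 tested was 0.03 and was -5.02e-05 with library totals. ID1, an inhibitor of basic helix-loop-helix factors in the 20q11.21 region that often gains copies in cultured stem cells, had 236 and 203 CPM in the controls and 314, 424 and 305 CPM in CFIm25 KO (edgeR log2 fold change 0.66 with SE 0.16, adjusted p = 0.21). Of the 7 tested members of that region 4 stood above 0, with a median of 0.20 that was 0.34 without control 1, 0.06 without control 2 and 0.09 without CFIm25 KO 3.

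**Figure D4:**
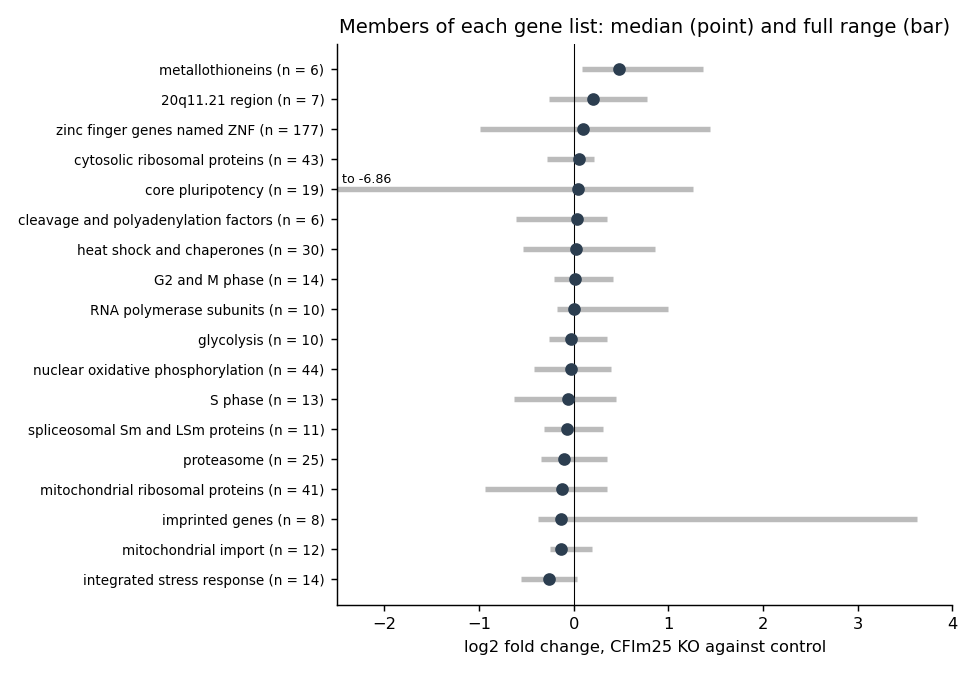
Log2 fold change of CFIm25 KO against control for the members of each gene list with at least 5 tested members, with the median as a point and the lowest to highest value as a bar. The integrated stress response has the lowest median (-0.27) and the metallothioneins the highest (0.48), the latter carried by CFIm25 KO 3; the bar of core pluripotency runs on to -6.86.

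By chromosome, the medians of the tested members ran from -0.03 on chromosome 10 to 0.11 on the X chromosome. On the X chromosome 165 of 256 members stood above 0, and the other 3' UTR sites of that chromosome had a median of 0.07. The median of log2(CPM + 1) against the control mean was 0.09 in CFIm25 KO 1, 0.12 in CFIm25 KO 2 and 0.08 in CFIm25 KO 3, so the 3 clones pointed the same way. Across the scalings and with any 1 library left out, the X median lay between 0.07 and 0.13. Chromosome 19, which carries many ZNF genes, had the highest share of single-site genes (73.3% of 720) and a median of 0.07. Chromosome 18 had the lowest share, 46.8% of 154 genes.

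The fold change varied little with the signals at the annotated end. These need not be the signals at the measured site, which lay over 1000 bases upstream of the RefSeq gene end in 20.3% of matched members. The median was 0.04 in the 2615 members with no TGTA in the last 100 bases, 0.02 in the 1828 with 1 copy, 0.01 in the 824 with 2 and -0.01 in the 355 with 3 or more. The quartiles overlapped nearly in full, from -0.14 to 0.23 with no copy and from -0.17 to 0.17 with 3 or more. Members with more copies also had longer 3' UTRs, with a median of 709 bases at 0 copies and 1212 at 3 or more. Members with AATAAA had a median of 0.03, those with only ATTAAA of 0.01 and those with neither of 0.03. Of 4 bins of 3' UTR length with near equal numbers of members, the shortest had a median of 0.02 and the longest of 0.04.

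At matched level the spread of members around 0 was wider than that of genes with more sites at low levels and slightly narrower at high levels. For gene sums with a mean log2 CPM under 2, the SD of the log2 fold change was 0.58 over 1496 tested members and 0.48 over 154 other genes. From 2 to 4 it was 0.37 over 2072 members and 0.36 over 1352 others, and from 4 to 6 it was 0.28 over 1514 members and 0.26 over 1707 others. From 6 to 8 it was 0.19 over 608 members and 0.20 over 849 others, and at 8 or more it was 0.16 and 0.18. The wider spread of members over all levels (0.40, against 0.33, 0.24 and 0.21 in the classes with 2, 3 and 4 or more sites) went along with their lower counts.

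Of the members, 5291 had no other site assigned to their gene, and 1039 had at least 1 intronic or exonic site or a site at the stop codon. Sites with no assigned gene, including any that lie downstream of a member, were not counted here. There were 908 intronic sites in 680 members and 594 exonic sites in 469 members. In 176 members the intronic reads outnumbered those of the 3' UTR site. Intronic reads made up 1.58% and 1.59% of the intronic plus 3' UTR reads of members in the controls and 1.52%, 1.54% and 1.61% in CFIm25 KO (exact two-sided permutation test, p = 0.4, adjusted p = 0.933 over 7 measures). The direction turned when each of the 680 members with an intronic site counted alike, as the median share was 22.6% and 23.5% in the controls and 23.4%, 24.4% and 25.6% in CFIm25 KO (exact two-sided permutation test, p = 0.3). In genes with more sites the shares were 1.14% and 1.12% against 1.14%, 1.14% and 1.20%. The difference of members minus those genes was 0.439 and 0.466 percentage points in the controls and 0.380, 0.403 and 0.405 in CFIm25 KO. These groups did not overlap, with an exact permutation p = 0.1, the smallest that 5 libraries allow, and an adjusted p = 0.7.

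The intronic reads of a gene were tested against its 3' UTR reads in 939 genes with at least 10 reads of each on average, 404 of them members. Called members numbered 1, CSNK1E, and over all 939 genes the share called was 0.426%. At an unadjusted p under 0.05 stood 42 members (10.4%) and 11.0% of the 535 other genes. The shift is the change, from control to CFIm25 KO, of the log2 ratio of intronic to 3' UTR reads, and its median was 0.01 in members and 0.03 in the others.

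CSNK1E encodes casein kinase 1 epsilon, a kinase of the circadian clock and of WNT signalling. Its 2 intronic sites together had 132 and 111 reads in the controls and 505, 384 and 432 reads in CFIm25 KO. Its 3' UTR site had 101 and 84 reads against 169, 112 and 58 reads. The intronic share was thus 56.7% and 56.9% in the controls and 74.9%, 77.4% and 88.2% in CFIm25 KO, a shift of 1.62 (SE 0.32, edgeR diffSpliceDGE adjusted p = 0.0268). The intronic site nearer to the gene's end, at position 38296205 of chromosome 22, had 92 and 83 reads against 411, 291 and 344, and the other, at 38297601, had 40 and 28 reads against 94, 93 and 88. Every CFIm25 KO clone lay above both controls at both sites. The 3' UTR site alone did not pass (log2 fold change -0.11, SE 0.27, adjusted p = 0.958), and the sum of all CSNK1E sites rose, with a log2 fold change of 1.02 (SE 0.15, adjusted p = 0.0324). In that test of gene sums 5 of 5873 members were called, namely CHCHD2, ZFP42 and TCL1B lower and C9orf135 and CSNK1E higher, and the share over all 11841 genes was 0.0591%. The CSNK1E shift was not called without control 1, control 2 or CFIm25 KO 1. Nor were the gene sums of CSNK1E (adjusted p = 0.673, 0.995 and 0.151), C9orf135 (0.286, 0.995 and 0.0909) and TCL1B (1.00, 0.668 and 0.184) called without these libraries, and that of ZFP42 was lost without control 2 (0.0727).

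GRIP2, which encodes a scaffold of glutamate receptors, came next and pointed to the 3' UTR. It had 60 and 67 intronic reads and 5 and 5 reads at the 3' UTR site in the controls. In CFIm25 KO there were 67, 34 and 62 intronic and 32, 21 and 13 3' UTR reads. The shift was -2.30 (SE 0.59, edgeR diffSpliceDGE adjusted p = 0.121). Without CFIm25 KO 3 the called members numbered 5 of 404, with CSNK1E and YY1AP1 shifted to the intron and GRIP2, ENDOV and AMPD2 to the 3' UTR. The share over all genes is not given for that fit, so the rise is no result about members in particular. Calls over all sites also rose in that setting, from 0.101% to 1.32%. ENDOV, AMPD2 and YY1AP1 are named after their values were seen. In AMPD2, an AMP deaminase, the intronic share was 22.2% and 15.9% in the controls and 8.79%, 4.94% and 9.55% in CFIm25 KO. In YY1AP1 it was 1.86% and 1.98% in the controls and 5.99%, 11.5% and 1.22% in CFIm25 KO, so CFIm25 KO 3 lay below both controls and the other clones above. ENDOV had 92.6% and 92.4% against 74.1%, 78.8% and 85.6%.

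The clones of the CFIm25 KO group differed more among themselves than the controls did. Of the 2336 members at or above a mean log2 CPM of 4, none differed by more than 2-fold (on CPM + 1) between the controls. Between CFIm25 KO 1 and 2 there were 13 such members, between 1 and 3 there were 42, and between 2 and 3 there were 97 (4.15%). Against control 1 and control 2 the number was 21 and 14 in CFIm25 KO 1, 63 and 54 in CFIm25 KO 2, and 25 and 24 in CFIm25 KO 3. By this count CFIm25 KO 2 and 3 stood further apart in members than any clone stood from a control. Among 3046 other 3' UTR sites of that level, 9 differed between the controls, 66 (2.17%) between CFIm25 KO 2 and 3 and 73 (2.40%) between control 1 and CFIm25 KO 2, so that order did not hold there. Over the 3 CFIm25 KO clones the highest level was more than 2 times the lowest in 127 members (5.44%). Among the 3046 other 3' UTR sites the share was 3.55%, and the median ratio of highest to lowest was 1.26 in both. The highest was CFIm25 KO 3 in 70 of the 127 members and CFIm25 KO 2 in 48, and the lowest was CFIm25 KO 2 in 61 and CFIm25 KO 3 in 53.

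Among members whose mean log2 CPM reached 4, those with the largest ratio among the CFIm25 KO clones were the metallothioneins MT1H, MT1G and MT2A together with GDF15, MAP2 and CDKN1A. MT1H, a cysteine-rich protein that binds zinc and copper, had 13.9 and 14.7 CPM in the controls and 7.12, 2.09 and 103 CPM in CFIm25 KO. MT2A had 45.0 and 45.6 CPM against 22.6, 11.5 and 136 CPM, and MT1G had 19.5 and 17.8 CPM against 8.39, 4.62 and 76.0 CPM. In each of them CFIm25 KO 3 lay above both controls and the other CFIm25 KO clones below. All 6 metallothioneins in the table were single-site genes, and their median log2 fold change of 0.48 became -1.24 without CFIm25 KO 3. CDKN1A, the cell cycle inhibitor p21, had 133 and 138 CPM against 76.9, 20.3 and 229.6 CPM, and the secreted stress protein GDF15 had 19.9 and 17.2 CPM against 17.2, 2.09 and 55.8 CPM. MAP2, a microtubule protein of neurons, followed another clone, with 9.38 and 11.0 CPM in the controls and 18.7, 98.9 and 6.50 CPM in CFIm25 KO. DLK1, an imprinted gene encoding a NOTCH ligand relative and just under that level, was likewise high in CFIm25 KO 2 alone, with 1.31 and 2.32 CPM against 1.53, 64.5 and 1.44 CPM.

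Without CFIm25 KO 3 the test called 61 members, 34 higher and 27 lower, or 1.05% of the 5822 tested, against 1.32% of all sites. The 4 members called with all libraries were among them. In 34 of the 61 CFIm25 KO 3 lay beyond both controls on the side of the other clones, in 8 it lay between the controls, and in 19 it lay beyond both controls on the other side. The genes given next are named after their values were seen. EGR1, an immediate early transcription factor, had 77.7 and 81.4 CPM in the controls, 202 and 209.9 CPM in CFIm25 KO 1 and 2 and 25.3 CPM in CFIm25 KO 3. SELENOP had 2.06 and 1.16 CPM in the controls, 16.7 and 27.0 CPM in CFIm25 KO 1 and 2 and 1.08 CPM in CFIm25 KO 3. Both lay on the other side of the controls in CFIm25 KO 3. EMD, which encodes the nuclear envelope protein emerin, had 321 and 389 CPM against 562, 685 and 408 CPM, with all 3 clones above the controls. NDRG2, a stress-responsive protein of the NDRG family, had 27.8 and 33.4 CPM against 68.9, 107 and 31.8 CPM. In the other direction, the annexin partner S100A10 had 38.7 and 38.1 CPM against 20.5, 14.9 and 50.9 CPM, and the synaptic vesicle calcium sensor SYT1 had 80.7 and 70.2 CPM against 47.2, 46.3 and 93.3 CPM. SFRP2, a secreted WNT modulator of stem cells, had 103 and 99.2 CPM against 60.1, 47.5 and 87.4 CPM, with no overlap.

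**Figure D5:**
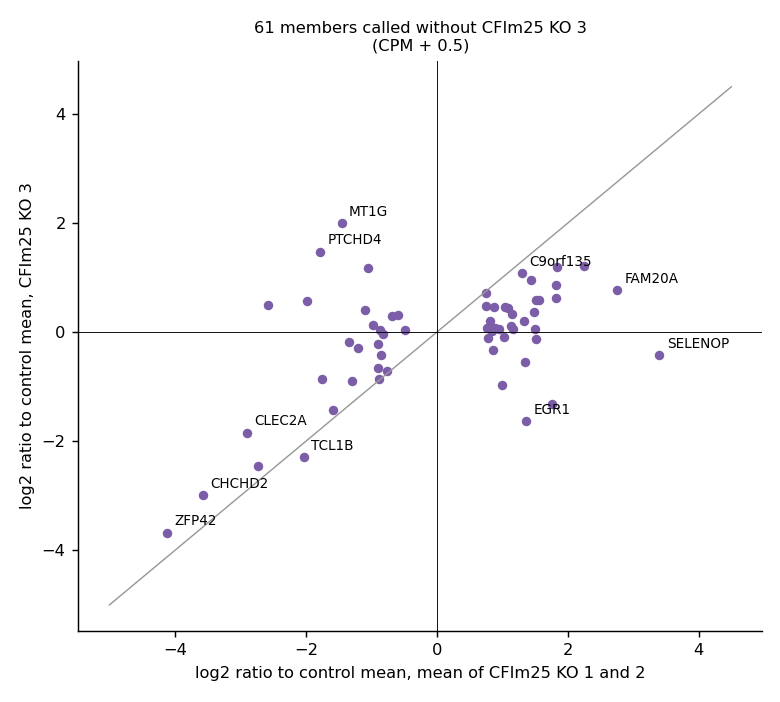
Log2 ratio to the control mean, on CPM plus 0.5, in CFIm25 KO 3 (vertical axis) against the mean of CFIm25 KO 1 and 2 (horizontal axis) for the 61 single-site genes called when CFIm25 KO 3 was left out, with the line of equal values. CHCHD2, ZFP42 and TCL1B lie near the line, while in CFIm25 KO 3 EGR1 and SELENOP lie below 0 and MT1G above 0, opposite to the mean of the other clones.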

How the data were processed

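The authors reverse complemented the QuantSeq Rev reads, aligned them with Bowtie2 keeping 1 alignment per read with up to 2 mismatches, removed internal priming and clustered read ends into sites. They deposited raw read counts per site and library, and RPM values, which scale each library's counts by its own total. Counts were used for all tests, and the RPM values only for the minimum level. The labels name hg19, but 98.74% of 23959 sites lay within 5000 bases of their RefSeq gene in GRCh38 and 12.47% of 24685 in GRCh37, so positions are given as GRCh38. Columns of the authors' own fold changes and p-values were not used.

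Sites and gene sums were tested on the whole table with edgeR 4.0.16 under R 4.3.3 (library scaling by TMM, low-count filter filterByExpr, two-sided quasi-likelihood test with robust fitting, Benjamini-Hochberg threshold 0.05), and intronic usage with diffSpliceDGE, whose fit had no term for the library. DESeq2 1.42.0 was an alternative. Standard errors derive from the fold change and the F statistic. Per-library shares were compared over all 10 regroupings of the libraries. Reads carry no molecular identifiers, so 95% intervals (Clopper-Pearson) cover counting error only. Only the site fit was tested on simulated data, in which no clone stood apart from the others of its group. Control 1 and 2 differed by more than sampling noise, so no library was counted as a duplicate.

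The members, the gene lists, the tests and the rule for naming genes were chosen with earlier results of these data known. The rule names called members, the 8 of highest level, up to 4 of each list by smallest p, the study's transcripts, called intronic members, the 5 largest changes in each direction among groups that do not overlap (mean log2 CPM of at least 3), the 6 with the largest ratio among CFIm25 KO clones and the 3 at the minimum level. One member that the rule names is not reported here. Gene names came from the table, and 5 members whose symbols had become dates were restored from their identifiers. Members were matched to RefSeq by symbol and chromosome (6298 of 6330). Alternatives were other scalings, filters and definitions of the members, each library left out, and a replicate block.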

Additional observations from a re-analysis of the deposited data

How the results depend on the processing

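Leaving out each library in turn gave between 2 (without control 1, control 2 or CFIm25 KO 1) and 61 (without CFIm25 KO 3) called member sites, 4 being the number with all libraries. For gene sums the range was 1 to 56 against 5, for intronic usage 0 to 5 against 1, and for the median log2 fold change 0.020 to 0.039. The difference in the members' share of 3' UTR reads ran from -0.11 to 0.25 percentage points and that in their intronic share from -0.057 to -0.013. DESeq2's Wald test called 11 member sites and 12 gene sums. Shares over all sites or genes are given here only for the fits with all libraries and, for sites, without CFIm25 KO 3. The other counts therefore describe the settings and are no result about members in particular. Members with no other site assigned to their gene gave 3 called gene sums, since C9orf135 and CSNK1E have such sites. With library totals in place of TMM the median log2 fold change of members was -0.0046. With all reads of the table as denominator the members' share differed by -0.18 percentage points, and as a median over genes the difference in the intronic share turned from -0.031 to 1.42. The cause of these changes was not tested.

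Replicate numbers 1 and 2 are shared by control and CFIm25 KO, but same-numbered libraries did not deviate together (correlations of 0.075 and 0.010), so they share only a number. The fit with a replicate block leaves 1 residual degree of freedom. It called 126 of 5793 member sites, 299 of 5873 gene sums and 4 of 404 intronic members. The share called over all sites or genes is not given for it, so these counts are no result about members in particular.

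Of 66 members named in the text, 63 were tested, of which 10 uncalled ones changed direction in some alternative and 53 did not. Over the libraries left out, the log2 fold change ran from -0.92 (without CFIm25 KO 3) to 0.96 in GDF15, -1.09 to 1.23 in MT1E, -1.50 to 1.15 in MT1G, -1.60 to 1.93 in MT1H and -1.40 to 0.80 in MT2A. It ran from -1.47 to 0.18 in CDKN1A, -0.36 to 0.12 at the CSNK1E 3' UTR site, -0.0091 to 0.32 in EEF1G, -0.22 to 0.10 in SOX2 and -0.11 to 0.030 at the AMPD2 site (0.0053 without control 2). The replicate block likewise sets CFIm25 KO 3 aside. With it the values were -1.20 in GDF15, -1.08 in MT1E, -1.54 in MT1G, -1.68 in MT1H, -1.46 in MT2A, 0.11 in CSNK1E and 0.022 in SOX2. With 2 controls, members of few reads such as CCDC152 were at the limit of the test.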
